A study of Mus musculus with 2 samples.

Results

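The genes described here are 35 of the 23284 with a row in the count files. They encode the regulators and enzymes of fatty acid and triglyceride synthesis and were chosen by name and role, with earlier results of these data known. They were 3 regulators, 7 genes of fatty acid synthesis, 5 desaturases, 6 elongases and 14 genes of esterification to triglyceride. RNA was sequenced from primary hepatocytes of C57BL/6 mice, that is liver cells taken from the animal and cultured. A control library came from cells infected with control lentivirus, and a knockdown library from cells whose lentivirus carried an shRNA that targets JMJD3, the product of Kdm6b and an eraser of methyl marks on histone H3 lysine 27. Each library was a pool of cells from 5 mice, so there was 1 sample per group and no spread between replicates. Infection began 24 h after the cells were plated and lasted 48 h. All cells, controls included, were then given 5 mM glucose with 10 µM forskolin (Fsk), which activates adenylyl cyclase, during 6 h as an imitation of fasting. The study's title is about JMJD3 and fatty acid oxidation in fasting, and the comparison here asks how transcripts of the opposing, synthetic pathway stood when JMJD3 was reduced.

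The control library held 11099562 counts and the knockdown library 18334366. Kdm6b had 90.7 CPM (counts scaled to library size) in control against 33.0 CPM in knockdown, and the log2 ratio was -1.46 with a 95% interval of -1.60 to -1.31. Here and below the scaling uses TMM factors, a ratio is knockdown over control, and its interval is exact binomial and covers counting error only. A gene was taken as measured at a mean of at least 1 CPM, which 12607 genes reached. It passed the rule of size, as lower or higher, if its ratio differed from 1 by 1.5-fold or more with an interval that excluded 1. None of these differences has a replicate check. Hepatocyte transcripts were present, Alb at 1519 and 794 CPM and Trf at 4282 and 4254 CPM in control and knockdown. But 5 of 9 measured hepatocyte markers passed as lower and 1, Apob, as higher, beside 12.8% and 15.3% of all measured genes. Fabp1 had 2 counts in each library, and Apoa1 had 37 in control and 53 in knockdown. Cps1, the first enzyme of the urea cycle, had 222.9 CPM in control and 3.87 CPM in knockdown (log2 -5.85), and Fgb, a fibrinogen chain, had 3987 and 846 CPM (log2 -2.24). The summed level of the 10 hepatocyte markers was 11916 CPM in control and 8503 CPM in knockdown. Most of that difference came from Fgb, while Apob went from 1300 to 2229 CPM.

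Fatty acid synthesis turns citrate exported from mitochondria into acetyl-CoA, malonyl-CoA and then palmitate in the cytosol, and elongases and desaturases of the endoplasmic reticulum lengthen and unsaturate the product. Acyl chains are next joined to glycerol-3-phosphate in steps that end with diacylglycerol acyltransferase, which makes triglyceride. In liver the pathway is known to be raised by insulin and feeding through SREBP-1c, encoded by Srebf1, and by carbohydrate through ChREBP, encoded by Mlxipl, which binds DNA with its partner Mlx. Fasting and cyclic AMP are known to lower it.

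Of the 35 genes, 33 were measured, and 6 of these passed as lower and 2 as higher. Over all measured genes 12.8% passed as lower, 15.3% as higher and 28.0% in either direction. At a 2-fold threshold 5 members were lower and 1 higher, beside 6.19% and 7.35% of all measured genes. The lower genes were Elovl2, Pnpla3, Acacb, Thrsp, Dgat2 and Scd2, and the higher genes were Fads3 and Fasn. They came from every enzymatic role, while none of the regulators passed. The median log2 ratio of the measured members was -0.07, beside -0.004 over all measured genes. Ratios were below 1 in 19 members and above 1 in 14, while 50.3% of all measured genes were below 1. The ratios spanned log2 -2.40 to 1.31, and 17 of the 33 lay within 1.2-fold of 1. The members not measured were Elovl3, with 0 counts in both libraries, and Mogat1, with 3 counts in control and 1 in knockdown. A count of 0 allows up to 0.267 CPM in control and 0.166 CPM in knockdown.

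**Figure D1:**
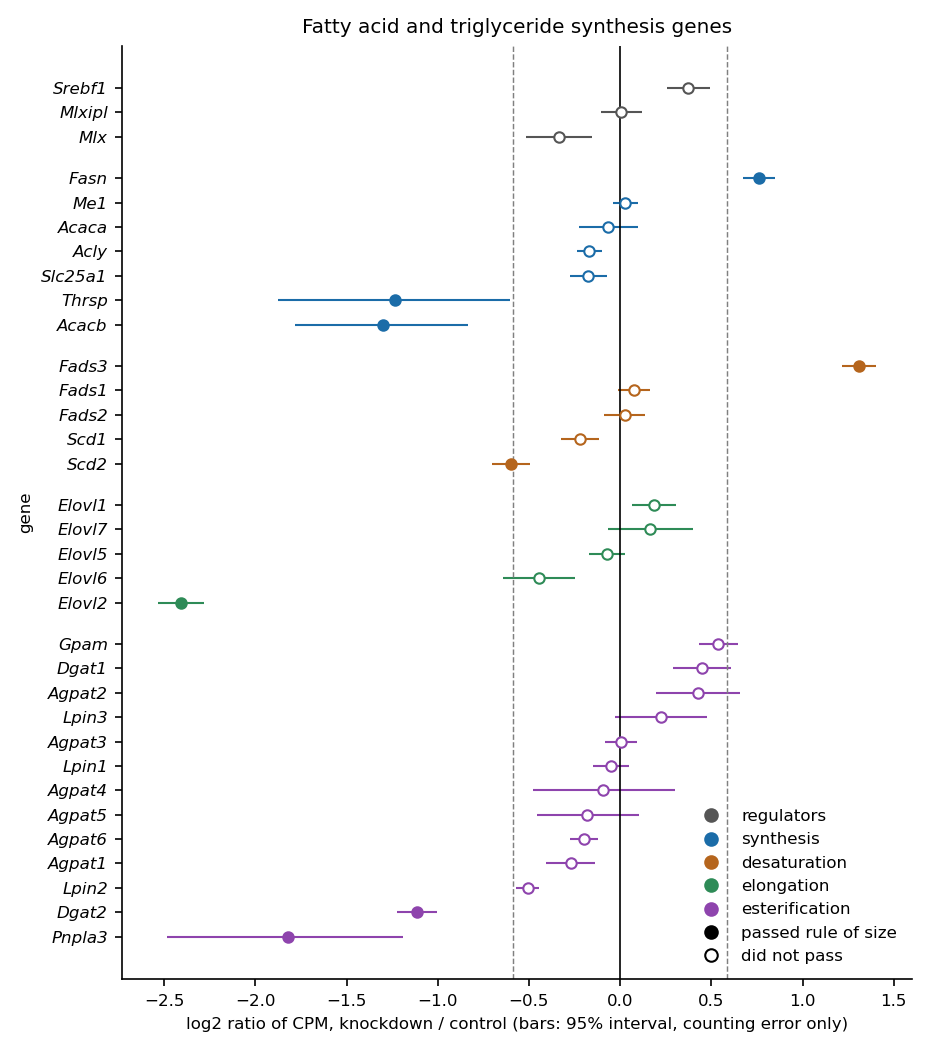
The log2 ratio of CPM in knockdown over control is plotted on the x axis for the 33 measured genes, grouped and coloured by role on the y axis, with bars for the 95% interval of the counts and dashed lines at 1.5-fold. Filled points passed the rule of size: Fads3 at 1.31 and Fasn at 0.76 lie to the right, and Elovl2 at -2.40 lies farthest to the left.

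Promoter sequence is shown for 7 of the genes, 6 that passed the rule of size and Fads2, the neighbour of Fads3, which did not, picked after their ratios were seen. Each is the 250 bases before an annotated start in RefSeq, build GRCm38.p6, printed 5′ to 3′. Capitals mark matches, on either strand, to the letters CCAAT, known as a binding site of NF-Y. They also mark the cyclic AMP element, TGACGTCA, known to be bound by CREB. The remaining motif in capitals is TATAAA, the core promoter box. Of the 35 genes 27 had an entry in the RefSeq table, with 38 starts. Scd1, Scd2, Fads1, Elovl3, Agpat5, Agpat6, Dgat1 and Dgat2 had none.
Fasn, chr11:120824548-120824797, minus strand: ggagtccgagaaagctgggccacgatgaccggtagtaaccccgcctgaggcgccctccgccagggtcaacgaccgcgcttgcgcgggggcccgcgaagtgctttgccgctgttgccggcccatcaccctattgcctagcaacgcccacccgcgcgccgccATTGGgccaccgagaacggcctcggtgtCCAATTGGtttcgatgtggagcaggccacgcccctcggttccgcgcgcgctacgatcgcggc
Fads3, chr19:10041298-10041547, plus strand: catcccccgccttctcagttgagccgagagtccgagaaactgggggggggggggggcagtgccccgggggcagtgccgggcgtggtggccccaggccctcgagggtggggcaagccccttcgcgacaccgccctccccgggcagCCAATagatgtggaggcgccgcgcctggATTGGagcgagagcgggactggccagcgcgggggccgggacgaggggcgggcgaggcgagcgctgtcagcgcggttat
Fads2, chr19:10101504-10101753, minus strand: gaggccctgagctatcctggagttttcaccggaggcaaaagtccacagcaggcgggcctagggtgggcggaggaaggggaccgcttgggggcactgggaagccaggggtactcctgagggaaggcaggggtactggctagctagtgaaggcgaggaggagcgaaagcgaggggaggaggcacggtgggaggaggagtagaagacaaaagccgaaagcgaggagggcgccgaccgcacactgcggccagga
Elovl2, chr13:41220404-41220653, minus strand: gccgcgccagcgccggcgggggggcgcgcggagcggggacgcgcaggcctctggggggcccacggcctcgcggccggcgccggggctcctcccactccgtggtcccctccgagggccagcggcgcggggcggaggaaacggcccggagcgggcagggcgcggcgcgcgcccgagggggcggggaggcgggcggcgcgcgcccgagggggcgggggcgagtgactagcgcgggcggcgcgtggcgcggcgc
Acacb, chr5:114165268-114165517, plus strand: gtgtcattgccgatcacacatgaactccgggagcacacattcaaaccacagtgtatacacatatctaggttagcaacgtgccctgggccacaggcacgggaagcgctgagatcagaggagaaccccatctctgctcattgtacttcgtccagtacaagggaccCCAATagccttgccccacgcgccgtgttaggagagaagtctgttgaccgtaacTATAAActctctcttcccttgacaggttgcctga
Thrsp, chr7:97417551-97417800, minus strand: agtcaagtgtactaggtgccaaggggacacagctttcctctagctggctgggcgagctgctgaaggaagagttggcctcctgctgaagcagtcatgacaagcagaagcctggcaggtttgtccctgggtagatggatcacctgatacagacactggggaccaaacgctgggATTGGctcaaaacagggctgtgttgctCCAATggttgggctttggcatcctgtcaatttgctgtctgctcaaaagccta
Pnpla3, chr15:84167566-84167815, plus strand: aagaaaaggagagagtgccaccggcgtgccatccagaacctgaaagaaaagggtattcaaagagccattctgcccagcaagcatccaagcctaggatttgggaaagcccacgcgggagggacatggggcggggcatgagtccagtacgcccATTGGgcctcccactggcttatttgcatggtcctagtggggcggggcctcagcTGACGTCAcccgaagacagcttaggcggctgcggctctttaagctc
The CCAAT letters occurred before 17 of the 38 member starts and before 33.8% of all 32851 starts in the table. The cyclic AMP element was found before Pnpla3 alone among the members, 46 to 39 bases before its start, and before 1.55% of all starts. The TATA letters were found before Acacb alone, and before 12.4% of all. The sterol element searched (TCACNCCAC) matched only a window of Mlxipl, beside 1.05% of all starts, and the E-box (CACGTG) matched 5 members, Elovl5, Lpin2, Mlx, Mlxipl and Slc25a1, beside 6.02%. Neither the sterol element nor the E-box was found in the 7 windows printed here. Only these exact letters were searched, so variant forms of a site would be missed. Fasn and Fads3, the genes that passed as higher, both hold CCAAT letters, as do Acacb, Thrsp and Pnpla3, which passed as lower, while Elovl2 holds none of these 5 motifs. They are 5 of 10 motifs searched, and the choice of which to mark was made after the matches were seen. Of the others, the GC box (GGGCGG) was found before 20 of the 38 member starts, those of Elovl2, Fads2, Fads3 and Pnpla3 among them, and before 32.7% of all starts. The NRF1 element was found before Fasn and Mlx, and before 3.74% of all. No member window held the carbohydrate element, a pair of the E-box letters with 5 free bases between, which matched 0 of all starts. None held a direct repeat of AGGTCA with a spacer of 1 base, found before 0.0335% of all starts. The repeat with a spacer of 4 bases was likewise not found in members, beside 0.0152% of all.

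The regulators differed little between the libraries. Srebf1 had 77.4 CPM in control and 100.2 CPM in knockdown, giving a log2 ratio of 0.37 (0.26 to 0.49), a ratio above 1 beyond counting error and under 1.5-fold. Mlxipl stood at 90.8 and 91.2 CPM, a log2 ratio of 0.01 (-0.11 to 0.12). Its partner Mlx had 39.5 and 31.3 CPM, a log2 ratio of -0.34 (-0.52 to -0.15). The proteins made from Srebf1 and Mlxipl are controlled by cleavage and by glucose, which transcript counts do not show. Mlx and Srebf1 each share some exonic bases with a neighbour on the genome, 67 bp with Psmc3ip and 107 bp with Rai1, and reads there were counted for neither gene.

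In the synthesis group, Slc25a1, Acly, Me1 and Acaca lay close to a ratio of 1 before any correction for exon length. Fasn, Acacb and Thrsp passed the rule of size. Slc25a1, the mitochondrial citrate carrier, had 119.5 CPM in control and 105.9 CPM in knockdown (log2 -0.17, -0.28 to -0.07). Acly, which splits citrate into acetyl-CoA and oxaloacetate, had 271.9 and 242.0 CPM (log2 -0.17, -0.24 to -0.10). Me1, the malic enzyme that yields NADPH, had 247.3 and 252.3 CPM (log2 0.03, -0.04 to 0.10). These 3 abundant transcripts thus differed by less than 1.2-fold on the CPM scale. With the exon-length trend described below removed, Acly was at log2 -0.32, Slc25a1 at -0.04 and Me1 at -0.05.

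The carboxylases that make malonyl-CoA differed in ratio. Acaca, the cytosolic form used for synthesis, stood at 46.5 CPM in control and 44.5 CPM in knockdown (log2 -0.06, -0.22 to 0.10). It has 9032 bp of exon, and with the exon-length trend described below removed its log2 ratio was -0.46, which did not pass. Acacb, the form at the mitochondrial surface whose malonyl-CoA restrains carnitine palmitoyltransferase, had 98 counts in control and 64 in the deeper knockdown library. That was 8.72 and 3.53 CPM, a log2 ratio of -1.30 (-1.78 to -0.83). The ratio of Acaca to Acacb counts was 2.36 times (1.67 to 3.35) as high in knockdown, a measure that needs no scaling of the libraries. Of the 100-base windows in the longest Acaca transcript, 42.8% also occur in the gene model Gm5182, so its count may be too low in both libraries. The next largest shares among the members were Agpat5 at 18.2%, Me1 at 17.2%, Mlx at 15.3% and Mogat1 at 8.15%.

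Fasn, the synthase that builds palmitate, is at chr11:120667272-120685861 in mm9, minus strand, with 43 exons in the files. It was the member of the synthesis group that passed as higher. It had 1454 counts in control and 3974 in knockdown, or 129.4 and 219.5 CPM, a log2 ratio of 0.76 (0.68 to 0.85). The count ratio of Fasn to Acly was 1.91 times (1.77 to 2.06) as high in knockdown, and that of Fasn to Acaca 1.77 times (1.56 to 2.01). Fasn has 9938 bp of exon, and ratios rose with exon length across all genes, as given below. With that trend removed its log2 ratio was 0.34 and it no longer passed. Thrsp, a small nuclear and cytosolic protein tied to lipogenesis, went the other way on few reads, with 54 and 37 counts, 4.80 and 2.04 CPM, and a log2 ratio of -1.23 (-1.88 to -0.60). In mm9 Thrsp is at chr7:104561467-104566020, minus strand, and Acacb at chr5:114615527-114700767, plus strand.

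Among the desaturases the most marked difference was in Fads3, the family member whose substrates are least defined among the 3 Fads genes. It had 1151 counts in control and 4594 in knockdown, or 102.4 and 253.7 CPM, a log2 ratio of 1.31 (1.215 to 1.403). Fads1, the delta-5 desaturase of polyunsaturated fatty acids, was at 154.5 and 162.8 CPM (log2 0.08, -0.01 to 0.16). Fads2, the delta-6 desaturase, was at 92.9 and 94.6 CPM (log2 0.03, -0.09 to 0.14). The 3 genes are neighbours on chromosome 19 in mm9, Fads3 at 10116038 to 10134161 on the plus strand, Fads2 at 10138654 to 10175993 on the minus strand and Fads1 at 10257378 to 10271362 on the plus strand. Fads3 and Fads2 end 4492 bp apart, tail to tail. The count ratio of Fads3 to Fads2 was 2.43 times (2.20 to 2.69) as high in knockdown, while that of Fads2 to Fads1 was 0.966 times (0.875 to 1.07), an interval that includes no difference. Per length, with the deposited exon lengths, Fads3 rose from 22.8% to 41.4% of the summed Fads level and went from the least to the most abundant of the 3.

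The delta-9 desaturases, which make oleate and palmitoleate, had lower ratios. Scd1, the main liver form, had 114.5 CPM in control and 98.1 CPM in knockdown (log2 -0.22, -0.33 to -0.12). Scd2 had 129.3 and 85.4 CPM (log2 -0.60, -0.70 to -0.49), just past the log2 threshold of 0.58, and did not pass at 2-fold. Per length the forms were level in control, at 55.1 TPM (transcripts scaled to length and library) for Scd1 and 55.2 TPM for Scd2, and stood at 50.9 and 39.3 TPM in knockdown. The genes lie on chromosome 19 in mm9, Scd2 from 44368166 to 44381352 on the plus strand and Scd1 from 44468940 to 44482199 on the minus strand. Their count ratio was 1.30 times (1.17 to 1.44) as high in knockdown. Of the paralogs, Scd3 had 0 and 1 counts and Scd4 had 0 in both, and 2.66% of Scd1 windows of 100 bases are shared with other genes.

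Elongation held the largest difference of the module. Elovl2, which lengthens long polyunsaturated fatty acids toward docosahexaenoic acid, had 2199 counts in control and 669 in knockdown. It is at chr13:41277751-41315772 in mm9, minus strand. Its level was 195.7 and 36.9 CPM, a log2 ratio of -2.40 (-2.53 to -2.28), and a percentile of 1.46 among measured genes. Elovl5, which acts on shorter polyunsaturated chains, stood at 121.9 and 115.9 CPM (log2 -0.07, -0.17 to 0.03). The count ratio of Elovl5 to Elovl2 was 5.03 times (4.50 to 5.63) as high in knockdown. Elovl2 went from 35.01% of the summed level of the family per length, the highest share, to 9.03%.

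The other elongases were nearer to 1. Elovl1, for very long saturated chains, had 78.3 CPM in control and 89.0 CPM in knockdown (log2 0.19, 0.07 to 0.31). Elovl6, which lengthens palmitate to stearate, had 34.7 and 25.5 CPM (log2 -0.45, -0.64 to -0.25), a ratio below 1 beyond counting error that did not reach 1.5-fold. Elovl7 had 20.998 and 23.527 CPM (log2 0.16, -0.07 to 0.40). Elovl3, a cold-induced elongase of brown fat that is also present in liver, had no count in either library.

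**Figure D2:**
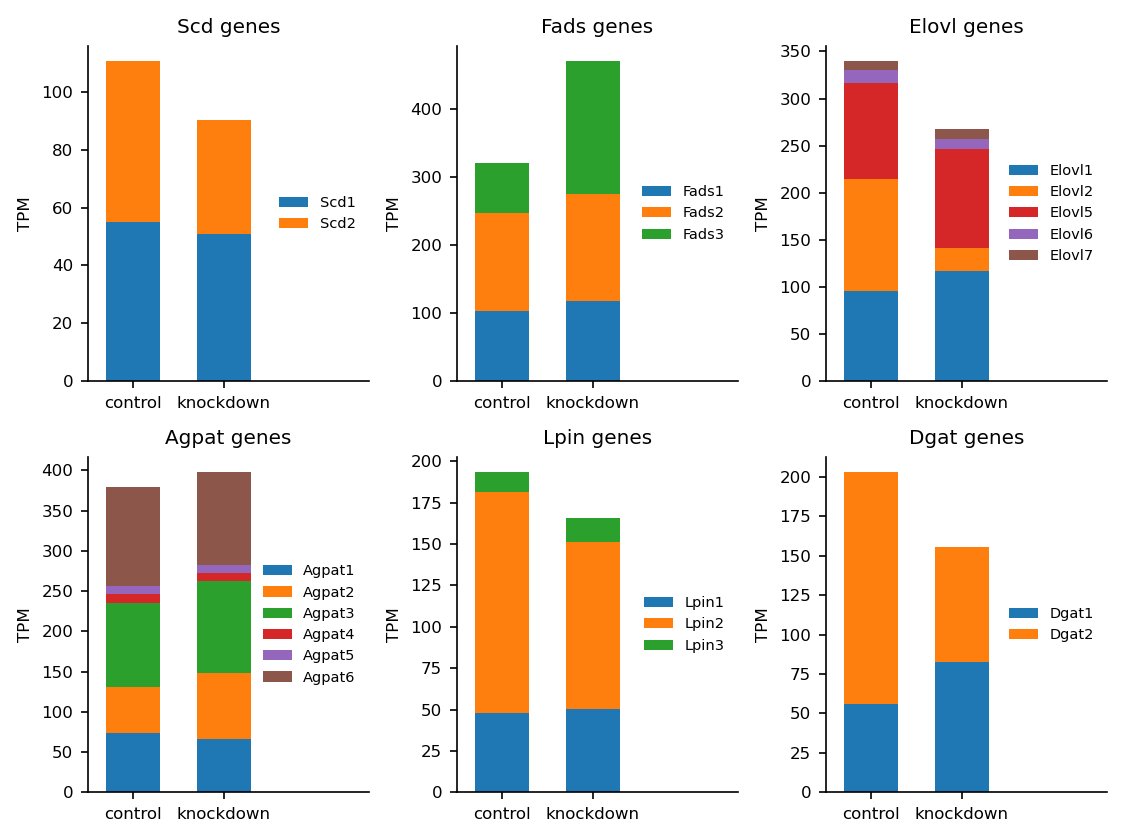
Stacked bars give the level per length, in TPM on the y axis, of the members of 6 gene families in the control and knockdown libraries, with colours for the genes and no error bars because each bar is 1 library. The Fads3 segment grows from 73.0 to 194.8 TPM, the Elovl2 segment shrinks from 118.8 to 24.2 TPM, and Dgat1 and Dgat2 change order.

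Esterification begins with glycerol-3-phosphate acyltransferases. Gpam, the mitochondrial form, had 91.4 CPM in control and 132.6 CPM in knockdown, with a log2 ratio of 0.54 (0.43 to 0.64), just under the threshold. Agpat6, now also named Gpat4, the form of the endoplasmic reticulum, had 208.4 and 181.4 CPM (log2 -0.20, -0.28 to -0.12). The count ratio of Gpam to Agpat6 was 1.67 times (1.52 to 1.83) as high in knockdown.

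The next step, acylation of lysophosphatidate, has 5 further Agpat genes here, none of which passed. Agpat2 had 20.6 CPM in control and 27.6 CPM in knockdown (log2 0.43, 0.20 to 0.66). Agpat1 had 71.2 and 59.0 CPM (log2 -0.27, -0.40 to -0.14) and Agpat3, the most abundant of the 5 per length, 154.9 and 155.5 CPM (log2 0.01, -0.08 to 0.09). The intervals of Agpat4 at -0.09 and Agpat5 at -0.18 included no difference, on 94 and 142 and on 182 and 259 counts.

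Lipins remove the phosphate from phosphatidate to give diacylglycerol. Lpin2, the most abundant of them here, had 335.8 CPM in control and 236.2 CPM in knockdown (log2 -0.51, -0.57 to -0.44), which did not reach 1.5-fold. Lpin1, a known target of fasting signals, had 118.3 and 114.4 CPM (log2 -0.05, -0.15 to 0.05), and Lpin3 had 17.8 and 20.8 CPM (log2 0.22, -0.03 to 0.48). The count ratio of Lpin1 to Lpin2 was 1.37 times (1.27 to 1.49) as high in knockdown.

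At the last step the acyltransferases had ratios on opposite sides of 1. Dgat2, the form linked to newly made fatty acids, had 1592 counts in control and 1185 in knockdown, or 141.6 and 65.4 CPM, a log2 ratio of -1.11 (-1.22 to -1.005). Dgat1 had 475 and 1044 counts, or 42.3 and 57.7 CPM, a log2 ratio of 0.45 (0.29 to 0.61) that did not pass. In mm9 Dgat2 is at chr7:106302173-106331223 and Dgat1 at chr15:76332445-76342248, both on the minus strand. Their count ratio, Dgat1 to Dgat2, was 2.95 times (2.58 to 3.38) as high in knockdown. Per length Dgat2 held 72.3% of the summed Dgat level in control and 46.9% in knockdown, so that Dgat1 was the more abundant there. Pnpla3, a lipid droplet protein that remodels triglyceride, had 68 and 31 counts, 6.05 and 1.71 CPM, and a log2 ratio of -1.82 (-2.48 to -1.19). Pnpla3 lies on the plus strand of chromosome 15 in mm9, from 83998246 to 84019951.

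**Figure D3:**
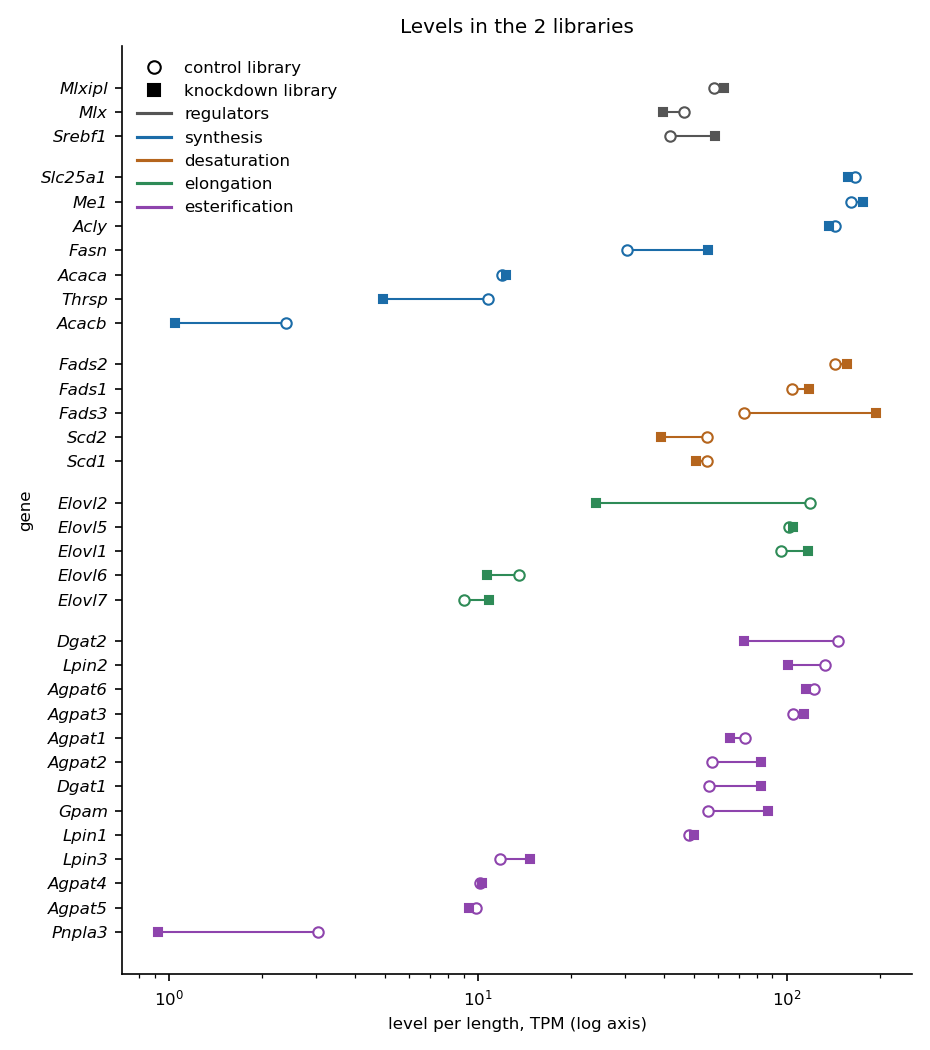
The level per length of the 33 measured genes is plotted in TPM on a log x axis, with an open circle for the control library, a square for the knockdown library and a line joining them, grouped by role on the y axis. Most pairs lie close together, while Elovl2, Dgat2, Acacb, Thrsp and Pnpla3 have the square to the left and Fads3 and Fasn to the right.

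The roles were set side by side with no test between them, because each group was 1 library and roles share it. The median log2 ratio was 0.01 for the regulators, -0.17 for synthesis, 0.03 for desaturation, -0.07 for elongation and -0.09 for esterification. From the lowest to the highest member, log2 ratios spanned 0.71 in the regulators, 2.07 in synthesis, 1.91 in desaturation, 2.59 in elongation and 2.36 in esterification. With the exon-length trend described below removed, the synthesis median was -0.32. In synthesis 2 of 7 passed as lower and 1 as higher, in desaturation 1 and 1 of 5, in elongation 1 and 0 of 5 measured, and in esterification 2 and 0 of 13 measured. Over all measured genes the shares were 12.8% and 15.3%. The 2 lower genes of synthesis were Acacb and Thrsp. Those of esterification were Dgat2, an acyltransferase, and Pnpla3, a lipid droplet protein that remodels triglyceride. The summed level per length was 431 TPM in control and 561 TPM in knockdown for desaturation, and 339 and 268 TPM for elongation. For synthesis these sums were 525 and 547 TPM, and for esterification 834 and 807 TPM. On the TPM scale every log2 ratio lies 0.11 above that on the CPM scale. Within desaturation Fads3 went from 73.0 to 194.8 TPM, and within elongation Elovl2 went from 118.8 to 24.2 TPM.

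Ratios rose with exon length across the whole data set. A smooth trend of the log2 ratio on exon length ran from -0.23 at 1183 bp, the 10th percentile, to 0.27 at 6295 bp, the 90th. With that trend removed, 8 members passed as lower and 2 as higher. Elovl6 at -0.69 and Lpin2 at -0.75 were added to the lower genes, Agpat2 at 0.75 took the place of Fasn among the higher, and the other 7 calls stood. What this trend reflects was not tested.

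**Figure D4:**
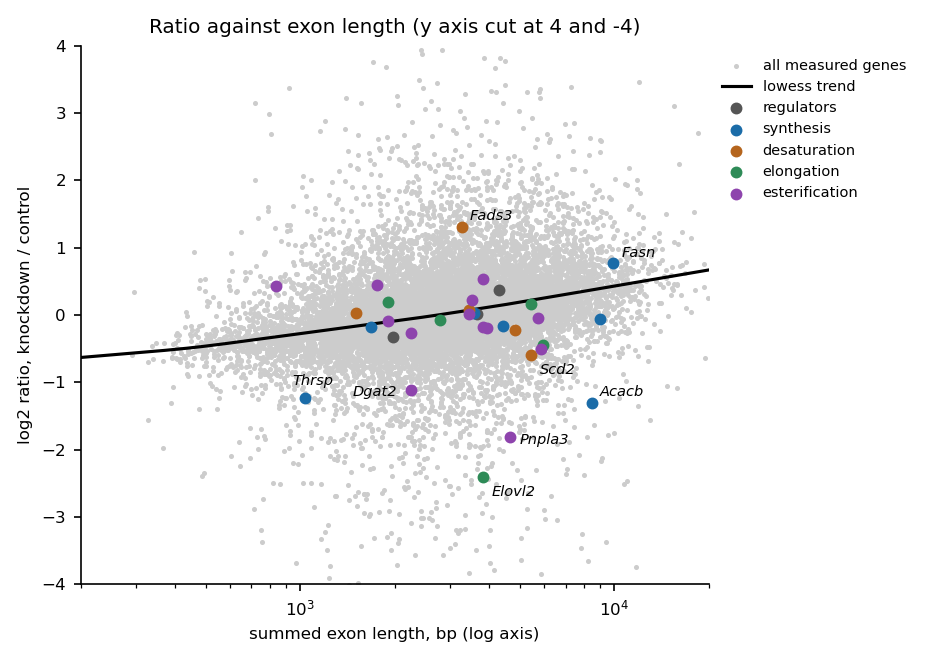
Each point is a gene, with summed exon length in bp on a log x axis and the log2 ratio of knockdown over control on the y axis: grey for 12503 measured genes (97 more lie outside the axes), colours for the members by role, and a black line for the trend. Fasn, at 9938 bp, lies close to the rising line, whereas Fads3 lies well above it and Elovl2, Pnpla3, Acacb, Thrsp and Dgat2 well below.

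Partner genes of the pathway were listed by role, likewise with earlier results of these data known, and were not tested against the members. Of 12 genes for SREBP processing, LXR and related factors, 3 passed as lower and 2 as higher, beside 12.8% and 15.3% of all measured genes. Their median log2 ratio was 0.04. The protease Mbtps1 was at 0.05 and the escort protein Scap at 0.08. Usf1, a factor that binds E-boxes, was lowest at -0.86, and Mid1ip1, a relative of Thrsp that promotes carboxylase polymerisation, was highest at 0.71. Chosen after their values were seen, Insig2, which retains SREBP in the endoplasmic reticulum, was at -0.77, Nr1h3, the liver X receptor alpha, at -0.86, and Mlxip, a paralog of Mlxipl, at 0.61.

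Of 11 genes that supply NADPH and acetyl-CoA, 5 passed as lower and 1 as higher, with 9 ratios below 1 and a median log2 ratio of -0.55. Over all measured genes 12.8% passed as lower and 15.3% as higher, and the measured hepatocyte markers had a median of -0.62. The part of the hepatocyte markers in the ratios of this list was not tested. Pgd, of the pentose phosphate pathway, had 640 CPM in control and 437 CPM in knockdown (log2 -0.55) and did not pass. Acss2, which makes acetyl-CoA from acetate, was lowest at -1.17, and H6pd, the hexose-6-phosphate dehydrogenase of the endoplasmic reticulum, was highest, at 305 and 685 CPM (log2 1.17). Chosen after their values were seen, G6pdx was at -0.78, Idh1 at -0.61, Mdh1 at -1.08 and Mlycd, which breaks down malonyl-CoA, at -0.77.

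Of 9 measured partners of elongation and desaturation 2 passed as lower and 1 as higher around a median log2 ratio of 0.05. The shares over all measured genes, here and for the glycerolipid partners below, were 12.8% lower and 15.3% higher. The 2 most abundant of these partners by mean CPM, Cyb5b and Cyb5r3, were at 0.07 and 0.05. Cyb5, a cytochrome b5 and an electron donor, was lowest at -1.04, with 323.9 CPM in control and 157.9 CPM in knockdown. Ptplad2, a dehydratase, was highest at 1.55 on 7 and 33 counts. Of 14 measured glycerolipid partners 2 were lower and 2 higher around a median of -0.01. Ppap2b, a lipid phosphate phosphatase, had 53.9 CPM in control and 156.6 CPM in knockdown (log2 1.54), Ctdnep1, the phosphatase that acts on lipin, was at -0.25, and Pcyt2, of phosphatidylethanolamine synthesis, was lowest at -0.94. Mogat2, a monoacylglycerol acyltransferase, was also picked for its value, with log2 1.32 on 60 and 242 counts.

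**Figure D5:**
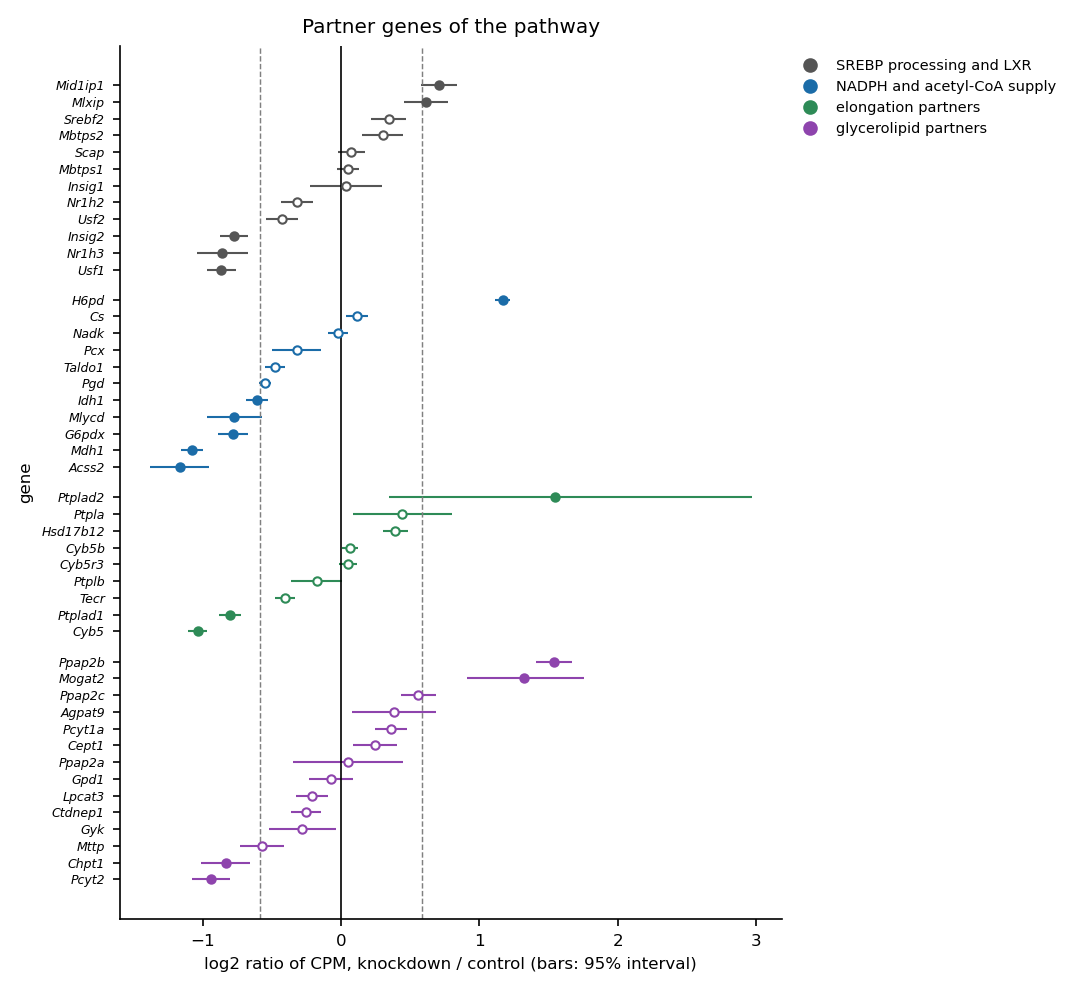
The log2 ratio of CPM in knockdown over control, with its 95% interval, is on the x axis for the measured genes of 4 partner lists on the y axis, coloured by list, with dashed lines at 1.5-fold and filled points for genes that passed. Most genes of the NADPH and acetyl-CoA list lie to the left of the line of no difference. H6pd at 1.17 and Cs at 0.12 lie to its right, and Nadk lies near it at -0.02.

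The comparison as the authors deposited it was set beside these ratios. With an adjusted p under 0.05 there were 6 members with a negative fold and 3 with a positive one in the authors' deposited table, against 11.8% and 14.6% of its 12838 genes. Those 6 were the members that passed the rule of size as lower, and the 3 were Fads3, Fasn and Gpam. For Elovl2 the authors' deposited table held a log2 fold of -2.40 (adjusted p 4.67e-25), for Fads3 1.31 (adjusted p 1.62e-08) and for Dgat2 -1.11 (adjusted p 2.78e-06). The authors' deposited table also called Gpam, at 0.54 with an adjusted p of 0.044, and gave Fasn 0.76 with 0.00204 and Lpin2 -0.51 with 0.0532. No source used here states which test or spread lies behind those p-values. With 1 library per group they cannot rest on a spread between replicates. Over the members the deposited log2 folds differed from the ratios here by at most 0.00512, so they are no independent check.

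Other cell types can express these genes too. Beside the marker counts that follow, 12.8% of all measured genes passed as lower and 15.3% as higher. Of the adipocyte markers Adipoq, Lep and Plin1 had 0 counts in both libraries, and Retn had 1 in each. The summed level of the 8 adipocyte markers was 13.2 CPM in control and 12.0 CPM in knockdown, with 1 of 3 measured higher and 1 lower. Of 5 cholangiocyte markers 3 passed as higher and 0 as lower. The 3 were Krt7 at 2.22 and 6.96 CPM, Krt19 at 47.3 and 71.5 CPM and Sox9 at 126.3 and 190.5 CPM. Spp1 stood at 7795 and 8011 CPM. The sum of the 5 markers, most of it Spp1, was 7974 CPM in control and 8282 CPM in knockdown. Of 6 proliferation markers 3 passed as higher, with sums of 186 and 277 CPM. Sums for macrophage markers were 25.6 and 27.6 CPM, for stellate and fibroblast markers 195 and 197 CPM, and for endothelial markers 47.6 and 44.7 CPM. None of 5 measured macrophage markers passed. Of 6 measured stellate and fibroblast markers 2 passed as lower, Pdgfrb at -0.82 and Dcn at -0.70, and of 6 endothelial markers Stab2 passed as lower at -1.03 and Oit3 as higher at 1.13 on the log2 scale. Clec4f, the Kupffer cell lectin, was at 0 in both. The part of these cell types and of the lower hepatocyte markers in the member ratios was not tested, and in such bulk RNA fewer cells of a type and less RNA per cell cannot be told apart.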

How the data were processed

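RNA of 1 control and 1 knockdown library was sequenced in paired reads of 100 bp, per the labels' protocols. STAR 2.5.3a, Trimmomatic 0.36 and edgeR are among the tools, and mm9 is the build, per the submitters' processing notes. The deposited values are whole-number counts from featureCounts 1.4.6-p4 on STAR alignments, exons grouped by gene in UCSC mm9 models and strand not used, per the file headers. No option for pairs was recorded, so each aligned read counts alone. The default of that program leaves out reads in several places or genes. The deposited exon length, in bp, gave TPM. For some members, Fads2, Agpat2 and Pnpla3 among them, it differs much from the longest GENCODE M21 transcript. Comparisons between genes per length thus depend on the gene models.

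The authors' deposited table gives a log2 fold change, average log2 CPM, p-value and adjusted p-value. Its sign equalled that of the count ratio in 12600 of 12600 genes compared.

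TMM factors came from edgeR 4.0.16 in R 4.3.3. With 1 library per group no test between conditions was made and no p-value was computed. The ratio carries an exact conditional binomial (Clopper-Pearson) 95% interval. The limit for a count of 0 is 3 counts. Intervals and floors cover counting error only, and counting both mates of a pair makes them too narrow. The procedure was tested on simulated counts with no spread beyond counting, so that test cannot show how the calls would hold between replicates. Ratios of ratios are odds ratios of counts with exact conditional intervals, for 13 pairs of members picked after the values were seen. Shared windows were sought in GENCODE M21 transcripts, on either strand. No protein identity was computed.

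All measured members were named. In each partner list the 2 most abundant genes by mean CPM, which is not corrected for length, were named. The genes with the highest and the lowest ratio were named too. The members and lists were chosen with earlier results of these data known. Alternatives were DESeq2 1.42.0 size factors, library totals, other filters, a 2-fold threshold, a divided count, a lowess length trend, overlapping genes left out and an edgeR prior count of 2. Uninfected cells, cells without forskolin and the fed state were not analysed here.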

Additional observations from a re-analysis of the deposited data

How the results depend on the processing

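No paired analysis was possible because each group held 1 library. The count of members passing as lower was 6, and it lay within 1.5 times that under each of the alternatives tried: both scalings, both filters, the 2-fold threshold, counts divided by 2, the length trend removed and the adjusted p of the authors' deposited table. It was 4 at a mean of at least 5 CPM, where Thrsp and Pnpla3 dropped out, and 8 with the length trend removed. The authors' deposited table is no independent check, because its folds nearly equal the ratios here. The count passing as higher, 2, fell to 1 at 2-fold, where Fads3 alone was left, because Fasn lies between the thresholds. The authors' deposited table had 3. The median log2 ratio of the synthesis group was -0.17 and became -0.32 with the length trend removed. That of elongation was -0.07 and became -0.26 without the genes that overlap another, where Elovl1 is left out. A median counted as moved where it left the span between the median lower and median upper interval bounds of its members. Under DESeq2 size factors, library totals and a prior count of 2, all 33 measured members stayed within their intervals, and with the length trend removed 14 did not. No called member changed sign under these alternatives. Leaving out a replicate was not possible. Depth limits Acacb, Thrsp, Agpat4 and Pnpla3, each under 10 CPM in control, and at this depth differences for Elovl3 and Mogat1 were not detectable.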
